A study of Mus musculus with 3 samples.

Results

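The nuclear-encoded subunits of the respiratory chain and ATP synthase were read in single mouse embryonic stem cells that lacked Fgf4 and were given 0, 5 or 50 ng/ml FGF4. A gene was included if its symbol began with Ndufa, Ndufb, Ndufc, Ndufs, Ndufv, Uqcr, Cox4i, Cox5, Cox6, Cox7, Cox8 or Atp5, or was Sdha, Sdhb, Sdhc or Sdhd. The assembly factors whose symbols begin with Ndufaf or Sdhaf, Cox7a1 and symbols ending in -ps were left out. This rule goes by symbol alone, but it was set with earlier results of these data known. It gave 84 of the 32285 genes in the files. They comprised 38 genes of complex I, 4 of complex II, 8 of complex III, 17 of complex IV and 17 of complex V.

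All cells were of the E14tg2a line with the genotype Fgf4 -/-, plated in ES medium with LIF. For the next 24 h they were kept in N2B27 with Chiron, an inhibitor of GSK3, 1 µg/ml heparin and the given dose of FGF4. The cells without FGF4 thus shared the mutation, Chiron and heparin with the treated cells. Each dose was 1 library of 10x Genomics 3' single-cell RNA, so no spread between replicates is known and no test between doses was made. Intervals cover counting error only, and cells of a library are not replicates of a dose.

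The respiratory chain passes electrons from NADH and succinate to oxygen through complexes I to IV and pumps protons across the inner mitochondrial membrane. Complex V, the ATP synthase, uses the proton gradient to make ATP. Complex II is encoded by nuclear genes alone, whereas the other complexes also hold subunits made from mitochondrial DNA. Naive pluripotent cells are known to use both respiration and glycolysis, while cells of the later, primed state lean more on glycolysis.

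Promoters are shown first for the 5 subunits whose levels at 0 and 50 ng/ml lay furthest apart, past a limit of 25% higher or, the same factor the other way, 20% lower. Of 78 measured subunits, 1 was past the upper limit and 4 past the lower, against 13.8% and 14.3% of 5709 measured genes. The subunits were thus past either limit less often than genes at large. Ndufa8, an accessory subunit of complex I on the intermembrane-space side, was higher. Ndufa3 and Ndufb4, small accessory subunits of the membrane arm of complex I, Ndufa6, an accessory subunit of complex I that binds acyl carrier protein, and Atp5k, the e subunit of ATP synthase, were lower. Each line gives 150 bases of RefSeq sequence (GRCm38.p6), 5′ to 3′ on the gene's strand, that end just upstream of the gene start in RefSeq or in GENCODE M21, whichever lies further upstream. Capitals mark exact matches to an NRF1-type motif (GCGCATGC), an ETS-type motif (CCGGAAG), a YY1-type motif (AAGATGGC), a GC box (GGGCGG) or an ERR-type motif (TCAAGGTCA), on either strand.
Ndufa8 (chr2:36049407-36049556, minus strand): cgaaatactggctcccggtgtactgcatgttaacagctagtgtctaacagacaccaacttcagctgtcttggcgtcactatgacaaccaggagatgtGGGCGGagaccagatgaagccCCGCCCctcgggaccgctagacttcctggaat
Ndufa3 (chr7:3617223-3617372, plus strand): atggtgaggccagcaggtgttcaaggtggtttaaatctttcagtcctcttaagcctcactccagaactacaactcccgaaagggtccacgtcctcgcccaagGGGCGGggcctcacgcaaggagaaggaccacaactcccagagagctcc
Ndufa6 (chr15:82354323-82354472, minus strand): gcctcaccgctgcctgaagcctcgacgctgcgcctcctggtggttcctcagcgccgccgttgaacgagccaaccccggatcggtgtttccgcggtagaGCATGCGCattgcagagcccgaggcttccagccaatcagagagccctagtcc
Ndufb4 (chr16:37654454-37654603, minus strand): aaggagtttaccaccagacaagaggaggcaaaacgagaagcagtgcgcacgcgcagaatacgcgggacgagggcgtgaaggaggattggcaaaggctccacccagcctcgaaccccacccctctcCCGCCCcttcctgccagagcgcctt
Atp5k (chr5:108434449-108434598, minus strand): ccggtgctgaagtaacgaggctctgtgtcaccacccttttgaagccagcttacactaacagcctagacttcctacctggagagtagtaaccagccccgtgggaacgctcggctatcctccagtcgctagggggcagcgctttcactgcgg

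The 5 stretches did not hold 1 motif in common. GC boxes stood upstream of Ndufa8, Ndufa3 and Ndufb4, an NRF1-type match upstream of Ndufa6, and no match in this stretch of Atp5k. Promoter windows of 300 bases, from 250 bases before to 50 after the RefSeq start, were found for 68 of the 84 genes. Matches to the NRF1-type motif, the letters bound by nuclear respiratory factor 1, a known regulator of respiratory genes, were in 14.7% of these 68 windows, in 3.77% of 16864 windows of all genes and in 7.21% of 2123 windows of genes that reached 60 CPM (UMIs per 1000000 UMIs) in a library. They lay in the windows of 10 members of complexes I to V, and of the 5 members above in Ndufa8, Ndufa6 and Atp5k. The sites are printed with 10 bases on either side, on the strand where the motif reads GCGCATGC, with the motif in capitals. A longer run of capitals is a pair of overlapping matches, 1 on each strand.
Ndufa6 (chr15:82354357-82354384, plus strand): gctctgcaatGCGCATGCtctaccgcgg
Ndufa8 (chr2:36049329-36049356, plus strand): ggtaccatctGCGCATGCgtctccagcg
Ndufa11 (chr17:56717692-56717721, plus strand): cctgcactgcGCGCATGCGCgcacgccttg
Sdhb (chr4:140961207-140961234, minus strand): ggcccgtaggGCGCATGCccactgggct
Uqcr11 (chr10:80406808-80406835, plus strand): cagacgtataGCGCATGCgtgaaggcga
Uqcrc1 (chr9:108936668-108936697, plus strand): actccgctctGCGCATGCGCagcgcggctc
Cox6a1 (chr5:115349101-115349130, minus strand): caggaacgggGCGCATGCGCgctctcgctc
Atp5g2 (chr15:102671070-102671099, minus strand): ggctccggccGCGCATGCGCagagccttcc
Atp5k (chr5:108434430-108434459, minus strand): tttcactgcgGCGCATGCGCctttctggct
Atp5l (chr9:44920965-44920992, plus strand): tgggggaaatGCGCATGCgttattggtt

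The palindromic form GCGCATGCGC occurred in Ndufa11, Uqcrc1, Cox6a1, Atp5g2 and Atp5k. Of the members whose level at 50 ng/ml was below that without FGF4, 7 of 44 windows had the motif, and of those above it 3 of 22. The YY1-type motif was in 13.2% of member windows, 3.24% of all windows and 7.21% of those of genes at 60 CPM or more. Its letters hold ATG, and the windows reach past the start. ETS-type matches were in 23.5% of member windows against 12.3% of all and 25.6% of those at the higher level, with 8 of 44 windows among members below their level without FGF4 and 8 of 22 among those above it. The same counts were 5 of 44 and 4 of 22 for the YY1-type motif, and 20 of 44 and 8 of 22 for GC boxes. GC boxes were in 42.6% of member windows, 48.1% of all and 69.6% of those at the higher level. The ERR-type motif, bound by oestrogen-related receptors, was in the windows of Atp5g3 and Sdhd, or 2.94% of members, against 0.308% of all genes and 0.236% of those at the higher level. In Ndufs3 an ETS-type match and a GC box overlapped, and 21 of the 68 windows had none of the 5 motifs. A match is a description of letters, and binding was not measured.

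The libraries held 373, 874 and 975 cell barcodes at 0, 5 and 50 ng/ml, with 42726514, 75184072 and 81409975 UMIs (unique molecular identifiers, each standing for 1 captured transcript) and medians of 107873, 91764 and 87334 UMIs per barcode. No barcode was shared between libraries. Markers of embryonic stem cells were present, with 9 of 9 listed genes at 5 CPM or more, and of 8 fibroblast markers none reached that level, with Col3a1 and Postn at 0 in every library. Of 7 muscle and heart markers and 7 primitive endoderm markers none reached it either, while 3 of 5 neural markers did, with a summed level of 125, 41.3 and 37.6 CPM. Of 6 trophectoderm markers 2 reached it, Tfap2c with 46.9, 31.8 and 26.5 CPM and Cdx2 with 3.09, 8.70 and 11.4 CPM. Barcodes with more than 10% mitochondrial UMIs made up 3.22%, 15.2% and 15.7% of barcodes and 0.404%, 2.05% and 2.46% of UMIs, so they were more frequent in the libraries with FGF4. Of the UMIs that were not mitochondrial, the members took 29643, 23875 and 25581 CPM in these barcodes and 29536, 29010 and 28189 CPM in the others. The part of these barcodes in the results was not tested beyond the values given without them.

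The members took 1193158, 2048978 and 2148699 UMIs. As a level in CPM, scaled to all UMIs of the library, their sum was 27925, 27253 and 26394 at 0, 5 and 50 ng/ml. Each transcript was counted once at its 3' end, so levels were not divided by transcript length. The summed level was thus lower at each higher dose, at 0.976 times the level without FGF4 (95% counting interval 0.974 to 0.978) for 5 ng/ml and 0.945 times (0.943 to 0.947) for 50 ng/ml. Both ratios use the same library without FGF4. The ratio of 50 to 5 ng/ml was 0.968 (0.967 to 0.970). In 6 alternatives (other scalings, cell filters and doublet removal) the ratios ranged from 0.903 to 0.985 for 5 ng/ml and from 0.874 to 0.972 for 50 ng/ml, and stayed below 1.

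In all 3 libraries, 78 of the 84 members reached 60 CPM, from 70.7 CPM for Sdhc to 1493 CPM for Cox7c without FGF4, with a median of 280.0 CPM. The other 6 were Ndufa4l2, Cox4i2, Cox6a2, Cox7b2, Cox8b and Cox8c. At 50 ng/ml, 25 of the 78 had a ratio to the level without FGF4 above 1 and 53 below 1, and the median of their log2 ratios was -0.05. At the dose of 5 ng/ml, 37 were above and 41 below, and the median was -0.02. The medians over all genes of at least 20 CPM in either library were 0.02 and 0.03. Of 5709 such genes at 50 ng/ml, 3065 were above 1 and 2644 below, and of 5691 at 5 ng/ml 3160 and 2531. Among 2639 genes of at least 60 CPM, 1563 were above and 1076 below at 50 ng/ml. The member counts at 50 ng/ml depend on scaling, with 33 above and 45 below under TMM and 35 and 43 under median of ratios. The counts by complex below stand against the same shares and use library totals. The median ratios of members were thus near 1, and their position relative to all genes was not tested.

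**Figure D1:**
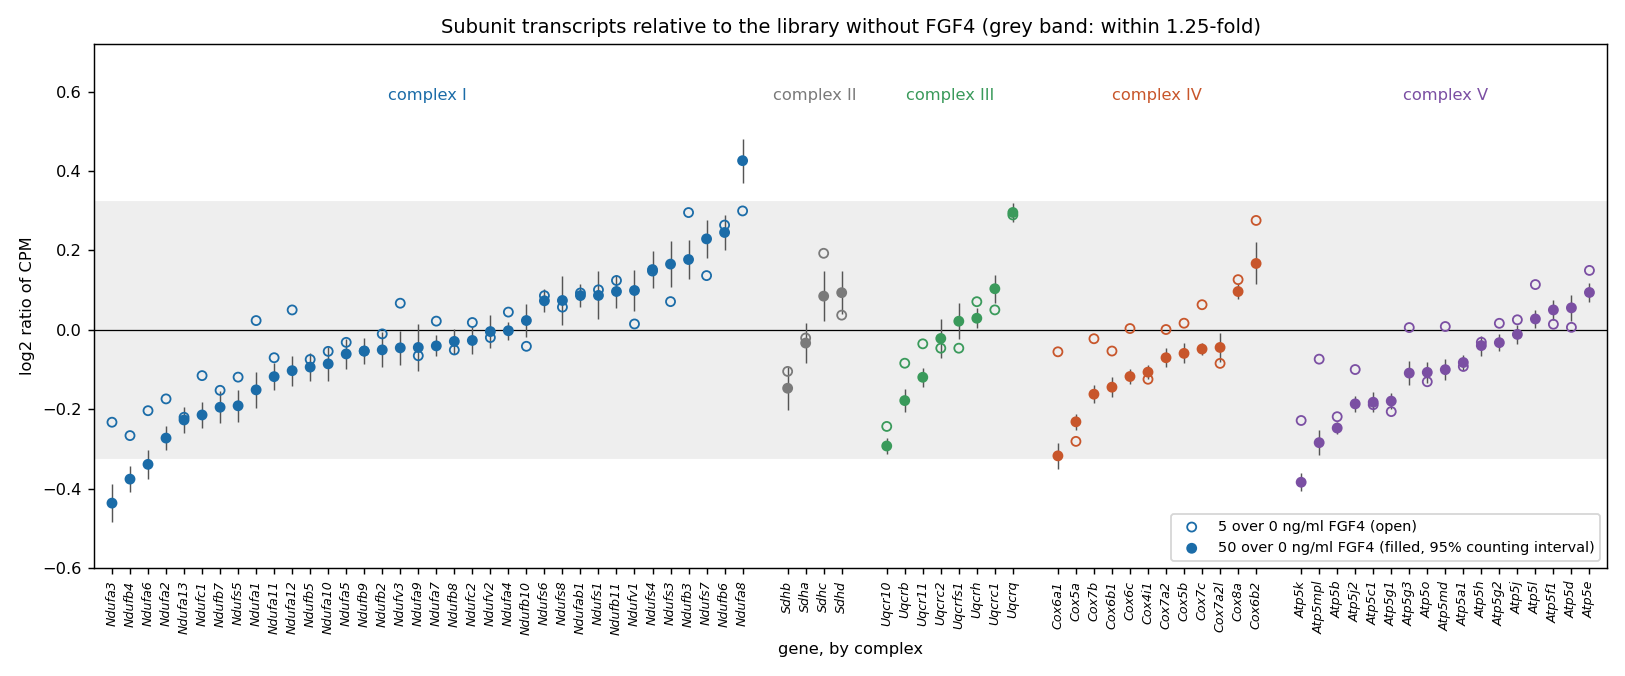
The log2 ratio of CPM for 77 of the 78 measured members (x axis, by complex and ordered by ratio) for 5 over 0 ng/ml FGF4 (open circles) and 50 over 0 ng/ml (filled circles, with 95% counting intervals, 1 library per dose). Only Ndufa8 lies above the grey band (up to 25% higher or 20% lower) at 50 ng/ml, and Ndufa3, Ndufb4, Ndufa6 and Atp5k lie below it.

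In summed counts, few single members were past either limit of 25% higher or 20% lower than without FGF4. At 5 ng/ml none of the 78 was 25% higher or more and none was 20% lower or more. Among 5691 genes of at least 20 CPM, 11.0% were past the upper limit and 10.2% past the lower. At 50 ng/ml 1 of 78 was higher and 4 were lower, against 13.8% and 14.3% of 5709 genes. With the mean of each barcode's share in place of summed counts, 6 of 78 were lower at 5 ng/ml, against 13.9% of all genes so scaled. On that scale 12 were lower and 0 higher at 50 ng/ml, against 19.4% and 9.18%. Between 5 and 50 ng/ml none was past either limit, against 0.745% higher and 1.91% lower of 5501 genes. Since members are abundant, the shares among genes of at least 60 CPM are closer in level: 10.1% higher and 7.31% lower at 5 ng/ml, 14.7% and 10.6% at 50 ng/ml, and 0.51% and 1.29% between 5 and 50 ng/ml. This level was chosen after the values were seen. The standard deviation of log2 ratios over members was 0.13 at 5 ng/ml and 0.16 at 50 ng/ml, and over all genes of at least 60 CPM it was 0.35 and 0.44. Between 5 and 50 ng/ml these were 0.08 for members and 0.12 for all such genes. The lowest ratio of a member at 50 ng/ml was 0.739 and the highest 1.34, while genes of at least 60 CPM reached from 0.0850 to 76.0. The member range and standard deviation leave out Cox7a1, which the rule excludes by name and which lay far below this range.

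**Figure D2:**
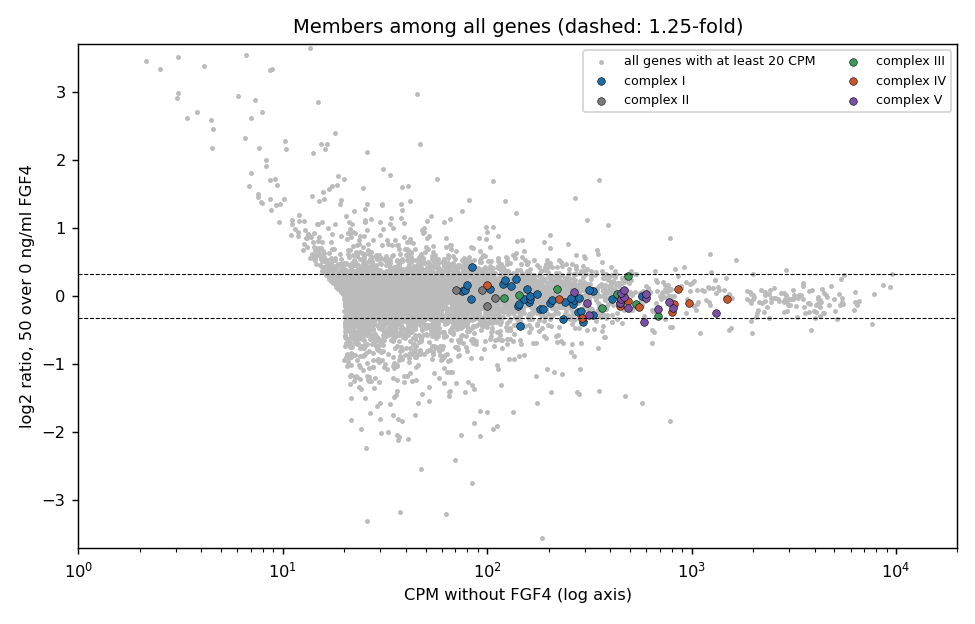
Each gene of at least 20 CPM in the library with 0 or 50 ng/ml FGF4 is a grey point, by its CPM without FGF4 (x axis, log) and its log2 ratio of 50 over 0 ng/ml (y axis). Members, coloured by complex, lie between 70.7 and 1493 CPM, and 73 of 78 lie within the dashed lines at 25% higher and 20% lower. Of the genes, 2 lie outside the plotted range.

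Complex I takes electrons from NADH and passes them to ubiquinone. Its summed level was 7553, 7456 and 7259 CPM at 0, 5 and 50 ng/ml, a ratio of 0.961 (0.957 to 0.965) at 50 ng/ml, and below 1 in all 6 alternatives (0.889 to 0.989). Of its 37 measured genes, 13 were above and 24 below their level without FGF4. The 7 core subunits hold the flavin and the iron-sulphur clusters or line the ubiquinone site. Their summed level went the other way in these libraries, at 764, 777 and 799 CPM, a ratio of 1.05 (1.03 to 1.06), with alternatives from 0.971 to 1.08 that fall on both sides of 1. Ndufs7, which holds the last cluster before ubiquinone, was at 122.5, 135 and 144 CPM, a ratio of 1.17 (1.13 to 1.21) at 50 ng/ml. Ndufs3, a core subunit of the matrix arm, was at 79.9, 83.9 and 89.6 CPM, a ratio of 1.12 (1.08 to 1.17). Ndufv1, which binds NADH and the flavin, was at 103.5, 105 and 111 CPM, and its partner Ndufv2 at 161, 159 and 161 CPM. Ndufs1, with several clusters, had 78.1, 83.7 and 82.9 CPM, and Ndufs8 had 75.1, 78.2 and 79.1 CPM. Without FGF4 the core genes had 75.1 to 161 CPM, and at 50 ng/ml 5 of the 7 were above their own level without FGF4.

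The accessory subunits of complex I, which surround the core, held both extremes of all members. Ndufa8 (chr2:36036326-36049406) had 84.6, 104 and 114 CPM in the order of the doses, a ratio of 1.34 (1.29 to 1.40) at 50 ng/ml. Ndufa3 (chr7:3617373-3620327) had 144, 122.5 and 106 CPM, a ratio of 0.739 (0.715 to 0.764). These genes were ordered by dose in opposite directions, with 1 library per dose. Ndufb4 (chr16:37647170-37654453) was at 296, 246 and 228 CPM, a ratio of 0.771 (0.753 to 0.788). Ndufa6 (chr15:82350140-82354322) was at 234, 203 and 185 CPM, a ratio of 0.791 (0.771 to 0.811). For each of these 4 genes the larger part of the difference on the log2 scale lay between 0 and 5 ng/ml, though for Ndufa3 the parts were close, with ratios of 0.851 for 5 over 0 ng/ml and 0.868 for 50 over 5 ng/ml. Under the TMM and median-of-ratios scalings Ndufa6, at 0.812 and 0.814, lay inside the limits, and under the mean share per cell Ndufa8 did, at 1.22.

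Other accessory subunits lay between these. Ndufb3 and Ndufb6, small subunits of the distal membrane arm, were higher at both doses than without FGF4. Ndufb3 was highest at 5 ng/ml, with 120, 147 and 135 CPM. Ndufb6 had 138, 165 and 163 CPM, with no difference between 5 and 50 ng/ml beyond counting error (ratio 0.987, 0.963 to 1.01). Their ratios were 1.23 and 1.20 at 5 ng/ml and 1.13 and 1.18 at 50 ng/ml. The 3' end of Ndufb6 lies in a region shared with Smim27, so reads there may be assigned to either gene. Ndufa1, an essential small membrane subunit, was close at 0 and 5 ng/ml and lower at 50 ng/ml, at 141, 144 and 127 CPM, a ratio of 0.901 (0.872 to 0.930). As groups, the genes with Ndufa symbols had a summed ratio of 0.937 (12 of 14 measured below 1), those with Ndufb and Ndufc symbols 0.955 (8 of 12 below 1) and the accessory Ndufs and Ndufv genes 1.00 (2 of 4 below 1). Ndufa4, placed here by its symbol, is known as a subunit of cytochrome c oxidase and had 572, 590 and 571 CPM, with no difference between 0 and 50 ng/ml beyond counting error. Its paralogue Ndufa4l2, known from hypoxic cells, had 2.86, 1.70 and 2.10 CPM.

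Complex II, succinate dehydrogenase, links the citric acid cycle to the chain. Its summed level was 375, 379 and 374 CPM, a ratio of 0.996 (0.977 to 1.02) at 50 ng/ml, the only complex whose counting interval included 1. Sdha, the flavin subunit, had 110, 108 and 107 CPM, a ratio of 0.977 (0.943 to 1.01). Sdhb, the iron-sulphur subunit, had 100, 93.3 and 90.6 CPM, a ratio of 0.903 (0.870 to 0.938). The membrane anchors were on the other side of 1, with Sdhc at 70.7, 80.8 and 75.0 CPM and Sdhd at 94.7, 97.1 and 101.0 CPM, a ratio of 1.07 (1.03 to 1.11) for Sdhd. At 50 ng/ml the ratios of the 4 genes ranged from 0.903 to 1.07, and at 5 ng/ml Sdhc was higher, with a ratio of 1.14 (1.09 to 1.19).

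Complex III passes electrons from ubiquinol to cytochrome c. Its summed level was 2991, 2980 and 2916 CPM, a ratio of 0.975 (0.969 to 0.982) with alternatives from 0.902 to 1.003, on both sides of 1. The sum held larger and opposite differences of single genes. Uqcrq, a small subunit next to the ubiquinone site, had 490, 599 and 601 CPM, a ratio of 1.22 (1.20 to 1.24) for the lower and 1.23 (1.21 to 1.247) for the higher dose. Uqcr10, a small membrane subunit, had 688, 581 and 562 CPM, ratios of 0.845 (0.832 to 0.857) and 0.817 (0.805 to 0.829). For both, the libraries with 5 and 50 ng/ml lay close together and apart from the library without FGF4. This was so for genes at large. Over all genes of at least 60 CPM the standard deviation of log2 ratios was 0.12 for 50 over 5 ng/ml. Against the library without FGF4 it was 0.35 and 0.44. The core proteins Uqcrc1 and Uqcrc2 had 220, 228 and 236 CPM and 121, 117 and 119 CPM, and Uqcrfs1, the Rieske iron-sulphur protein, had 142, 138 and 145 CPM. Only Uqcrc1 of these 3 had an interval at 50 ng/ml that excluded 1, with a ratio of 1.07 (1.05 to 1.10). The 3' end of Uqcrc2 overlaps the gene Pdzd9.

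Complex IV, cytochrome c oxidase, reduces oxygen. The summed level of its 17 genes was 7519, 7422 and 7081 CPM, a ratio of 0.987 (0.983 to 0.991) at 5 ng/ml and 0.942 (0.938 to 0.946) at 50 ng/ml, with alternatives from 0.873 to 0.969. The 11 commonly expressed subunits made up nearly all of it, and 10 of them were below their level without FGF4. Cox6a1, a regulatory subunit, had 292, 281 and 235 CPM, a ratio of 0.803 (0.785 to 0.821) at 50 ng/ml, just inside the limit, and most of its difference lay between 5 and 50 ng/ml. Cox5a, a matrix-side subunit, had the lowest ratio of all measured members at 5 ng/ml, with 803, 661 and 684 CPM, ratios of 0.823 (0.812 to 0.834) and 0.852 (0.840 to 0.863). Its 3' end overlaps the gene Gm26631. Cox4i1, a large nuclear subunit that binds ATP, had 975, 895 and 906 CPM and Cox5b, which binds zinc, had 451, 456 and 433 CPM. Cox8a, a small membrane subunit, was the 1 common gene above its level without FGF4, at 863, 942 and 923 CPM, a ratio of 1.07 (1.06 to 1.08). Cox7a2, also a small membrane subunit, had 488, 488 and 465 CPM, and Cox7a2l, which helps to join complexes III and IV, had 225, 212 and 218 CPM.

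Of the tissue-restricted isoforms of complex IV within the rule, all but Cox6b2 were nearly absent. Cox6b2, known from testis, had 99.5, 120 and 112 CPM, ratios of 1.21 (1.17 to 1.26) at 5 ng/ml and 1.12 (1.08 to 1.16) at 50 ng/ml, beside 448, 432 and 405 CPM for its common form Cox6b1. The isoforms of heart and muscle, Cox6a2 and Cox8b, had 1.05, 0.545 and 0.393 CPM and, for Cox8b, 0 UMIs, 1 UMI and 0 UMIs. Cox4i2, known from lung, had 0.351, 0.439 and 0.479 CPM. Cox7b2 and Cox8c, known from testis, had 0.983, 1.29 and 1.09 CPM and 1.15, 1.57 and 1.73 CPM. At full library depth these levels were above the limit that a count of 0 allows (3 UMIs, or 0.0702, 0.0399 and 0.0369 CPM), except for Cox8b. Free RNA in droplets gives such levels too, and its part was not tested.

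Complex V makes ATP, and its summed level of 9487, 9015 and 8763 CPM was the largest of the 5 complexes in each library. The ratios were 0.950 (0.947 to 0.954) at 5 ng/ml and 0.924 (0.920 to 0.927) at 50 ng/ml, the lowest of the 5, with alternatives from 0.853 to 0.950 at 50 ng/ml. Whether the complexes differed in their ratios was not tested. Of 17 genes, 13 were below their level without FGF4. In the catalytic F1 head, Atp5b, the beta subunit with the catalytic sites, had 1319, 1133 and 1111 CPM, a ratio of 0.842 (0.834 to 0.851). Atp5a1, the alpha subunit, had 778, 730 and 735 CPM, a ratio of 0.945 (0.932 to 0.957). Atp5e, the epsilon subunit of the central stalk, had the highest ratio of the complex at 50 ng/ml, with 466, 517 and 497 CPM, a ratio of 1.07 (1.05 to 1.09). The mature c protein of the membrane rotor is the same from 3 genes. Atp5g1 had 811, 703 and 716 CPM, Atp5g2 had 602, 609 and 589 CPM, and Atp5g3 had 309, 310.5 and 287 CPM, so the difference at 5 ng/ml lay in Atp5g1, with a ratio of 0.867. Atp5g1 has 2 near-identical copies elsewhere in the genome, both counted as genes of their own, so its counts are uncertain. The 4 genes of the peripheral stalk together were at 1818, 1782 and 1786 CPM, a ratio of 0.983 with alternatives from 0.902 to 1.01.

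The 5 small membrane subunits of complex V had the lowest summed ratio of any group of more than 1 gene, with 2629, 2533 and 2334 CPM and 0.888 (0.881 to 0.894) at 50 ng/ml, and alternatives from 0.823 to 0.913. Atp5k (chr5:108433244-108434448), which takes part in pairing ATP synthases into dimers, had 588, 502 and 451 CPM, ratios of 0.854 (0.840 to 0.867) and 0.766 (0.754 to 0.779). Atp5mpl, a small proteolipid, had 314, 298 and 258 CPM, with most of the difference between 5 and 50 ng/ml and a ratio of 0.821 (0.804 to 0.839) at 50 ng/ml. Atp5l, the g subunit that lies beside Atp5k, had 596, 645 and 608 CPM and a ratio of 1.02 (1.00 to 1.03). Atp5l has 12 near-identical copies elsewhere in the genome, and 1 of them is counted as a gene of its own in the files. In all, 20 of the 84 genes have such copies (at least 95% identity over 100 bases of the last 300 of the transcript), and the authors' counting may have dropped or split their reads. Ndufb3, Ndufs3, Cox5a, Cox6a1, Cox7c, Atp5g2, Atp5k and Atp5o are also among them.

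**Figure D3:**
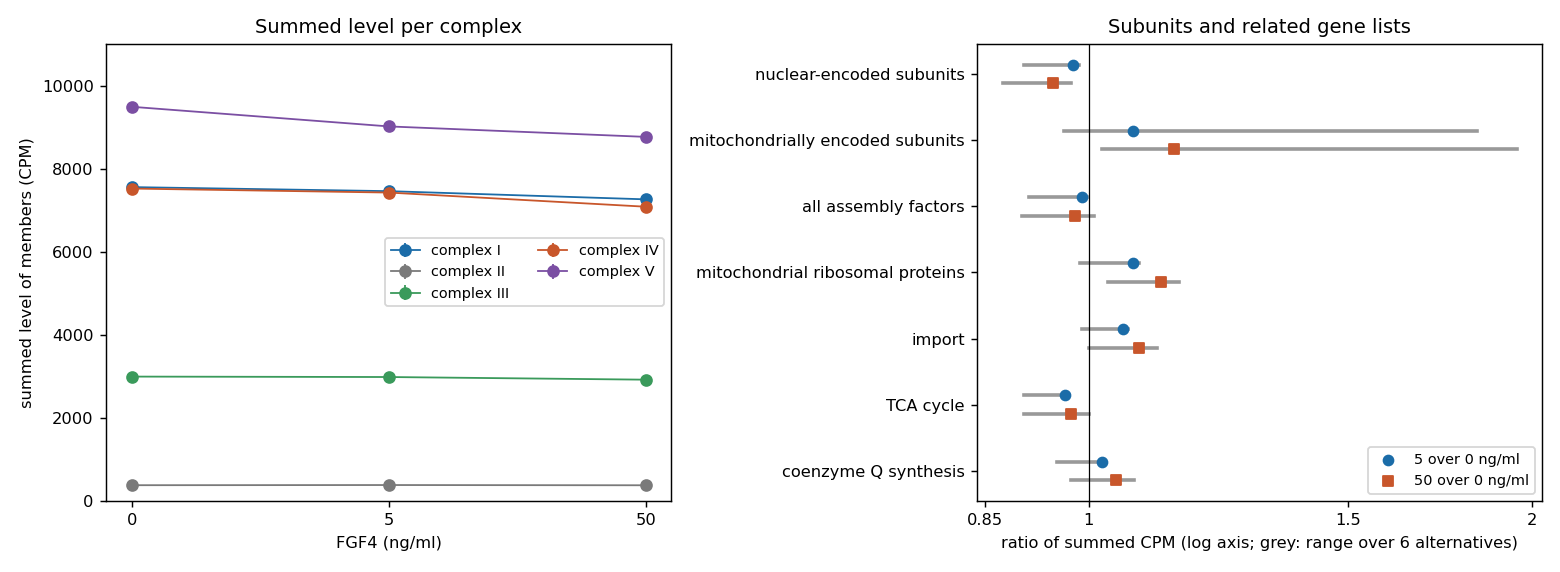
Left, summed CPM of the members of each complex (y axis) in the library of each FGF4 dose (x axis, evenly spaced), with 95% counting intervals smaller than the points. Right, ratio of summed CPM (log axis) of the 84 subunits and of related lists for 5 over 0 (circles) and 50 over 0 ng/ml (squares), with the range over 6 alternatives in grey. The subunits lie below 1 in every alternative, and the mitochondrial ribosomal proteins lie above 1 at 50 ng/ml in every alternative.

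Other genes of the mitochondrion did not share 1 direction with the nuclear subunits. The 13 subunits encoded by mitochondrial DNA summed to 54520.3, 58415 and 62274 CPM, ratios of 1.07 and 1.14, but 0.962 and 1.02 in filtered cells, which leave out the barcodes with more than 10% mitochondrial UMIs. As a mean share per barcode, with those barcodes kept, the ratios were 1.84 and 1.95. In those filtered cells at equal depth the mean share was 5.38%, 5.16% and 5.50% of UMIs. mt-Nd4, a proton-pumping subunit of complex I, had the highest ratio at 50 ng/ml, 1.30, and mt-Nd6, the subunit encoded on the other strand of the mitochondrial DNA, the lowest, 0.669. The 78 mitochondrial ribosomal proteins, which make up the machine that translates those subunits, summed to 7686, 8230 and 8604 CPM. Their ratio at 50 ng/ml was 1.12, with alternatives from 1.03 to 1.15. Of the 78, 11 were past the upper and 1 past the lower limit, against 13.8% and 14.3% of all genes of at least 20 CPM. The count past the upper limit was thus near the share of all genes. Mrpl24 was at 81.6, 115 and 122 CPM, and Mrps36, which is also known as a part of the 2-oxoglutarate dehydrogenase complex, was at 110, 88.9 and 84.3 CPM. The 24 import genes, for channels and carriers that bring nuclear-encoded proteins in, had a ratio of 1.08 (alternatives 1.00 to 1.11), with 5 past the upper limit and none past the lower. Tomm5, a small subunit of the outer membrane channel, was at 271, 368.5 and 410.5 CPM.

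Of 49 assembly factors, which build the complexes without staying in them, 36 were measured, and at 50 ng/ml 3 were past the upper and 4 past the lower limit, with a summed ratio of 0.979 (alternatives 0.900 to 1.01). Surf1, a factor for complex IV, had 13.6, 23.2 and 25.1 CPM, a ratio of 1.85 (1.68 to 2.03), and Cox20, a chaperone of the mitochondrially encoded subunit COX2, had 42.2, 23.6 and 19.3 CPM, a ratio of 0.459 (0.428 to 0.491). Of 17 citric acid cycle genes 1 was higher and 1 lower, with a summed ratio of 0.972 (alternatives 0.903 to 1.00). Idh2, the mitochondrial isocitrate dehydrogenase that uses NADP, had 152, 94.8 and 83.1 CPM and Suclg1, of succinyl-CoA synthetase, had 120, 138 and 150 CPM. Of the 13 coenzyme Q genes 6 were measured and none was past a limit, with a summed ratio of 1.04 (alternatives 0.972 to 1.07). Among 15 regulators of mitochondrial biogenesis 8 were measured, 2 lower and none higher. Esrrb, an oestrogen-related receptor that is also a naive pluripotency factor, had 93.1, 63.9 and 49.5 CPM, a ratio of 0.531 (0.509 to 0.555), Nrf1 had 42.8, 45.3 and 45.8 CPM, and Ppargc1a, the coactivator that raises respiratory genes in muscle and fat, had 1 UMI without FGF4 and 0 UMIs in the other libraries. These lists stand against 13.8% of all genes of at least 20 CPM lying past the upper limit and 14.3% past the lower at 50 ng/ml.

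Genes next to the rule show how much its wording matters. Cox7a1, a muscle and heart isoform of complex IV that the rule leaves out, had 69.8, 19.1 and 13.2 CPM, a ratio of 0.189 (0.176 to 0.202) at 50 ng/ml, far outside the range of the 78 measured members. Ndufb1-ps, left out for its symbol, had 316, 330.5 and 303 CPM. Cycs, cytochrome c, had 285, 305 and 301 CPM.

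Properties that the rule did not use varied with the ratios only weakly. Over the 78 measured members, the log2 ratio at 50 ng/ml had a Pearson correlation of -0.37 (Spearman -0.38) with the log2 level without FGF4, which shares its denominator with the ratio, and of 0.24 (Spearman 0.28) with the log2 transcript length. At 5 ng/ml the correlation with length was 0.05 (Spearman 0.05). These are correlations across genes, which are not independent replicates. Among the 39 shorter transcripts, of 362 to 809 bases, 29 were below their level without FGF4 at 50 ng/ml, and among the 39 longer ones 24 were. The members lie on 19 chromosomes.

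In single cells the summed member share varied beyond counting. Barcodes above 10% mitochondrial UMIs, or whose total was over 3-fold from the library median, were removed, and 359, 706 and 798 cells remained. Thinned to 40000 UMIs each, 358, 701 and 783 cells gave a mean share of 2.80%, 2.76% and 2.68% of the cell's UMIs. Its coefficient of variation was 9.88%, 9.49% and 9.66% at 0, 5 and 50 ng/ml, of which counting alone would give 2.95%, 2.97% and 3.02%. The span between the 5th and 95th percentiles ran from 2.34% to 3.24%, from 2.30% to 3.17% and from 2.26% to 3.09%. The cells of the 3 libraries thus overlapped over most of their range. The mitochondrially encoded share varied more, with coefficients of 21.9%, 20.6% and 21.1%. With the counting part removed, the members had 9.43%, 9.02% and 9.18%. Assembly factors had less, at 6.66%, 7.96% and 8.06%, as did citric acid cycle genes, at 7.41%, 7.46% and 7.28%. Mitochondrial ribosomal proteins had 9.92%, 10.2% and 9.71%, import genes 10.2%, 9.90% and 9.14%, and cytosolic ribosomal proteins 8.68%, 10.2% and 9.64%. Complex V had coefficients of 11.2%, 10.2% and 10.3% and complex IV of 12.4%, 12.6% and 13.4%, while for complex II, with about 15 UMIs per cell, counting alone would give 26.0%, 25.8% and 25.8% of the 29.1%, 26.8% and 26.98% seen.

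**Figure D4:**
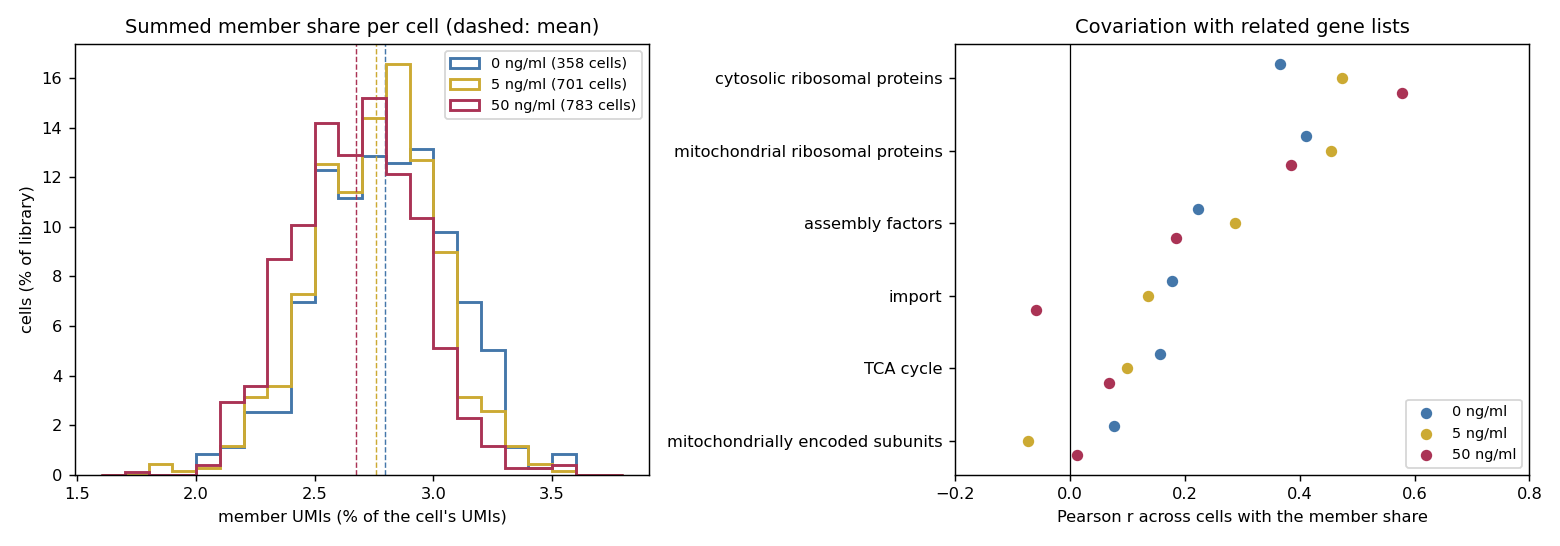
Left, distribution of the summed member share per filtered cell thinned to 40000 UMIs (x axis, % of the cell's UMIs; y axis, % of cells of the library), with dashed means of 2.80%, 2.76% and 2.68% at 0, 5 and 50 ng/ml FGF4. Right, Pearson correlation across the same cells between the member share and the shares of 6 other lists, where cytosolic ribosomal proteins are highest at 50 ng/ml (0.58) and mitochondrially encoded subunits stay near 0.

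At this depth 75, 77 and 76 of the 78 measured members had a UMI in over 95% of cells. Such counts depend on level and depth. Sdhc, the lowest without FGF4, had a mean of 2.67 UMIs per cell there and a UMI in 92.2% of cells. The share among other genes of like level was not computed, so this is not a trait of the members. The Fano factor, the variance over the mean of UMIs per cell, which is 1 for counting alone, had a median of 1.32, 1.30 and 1.29 over members. Among the 78, Cox4i1 had the highest Fano factor in each library, with 3.25, 3.17 and 3.39. Cox7c followed at 50 ng/ml with 2.72 (2.49 and 2.73 at the lower doses). Where cells differ beyond counting this factor rises with the level, so it does not rank members by variation relative to their level. Cox4i1 had 39.1, 36.4 and 36.8 UMIs per cell. Cox6b2, with factors of 2.66, 2.15 and 2.28, had 4.12, 5.10 and 4.52. The correlation of a member with the sum of the others had a median of 0.25, 0.24 and 0.25. It was 0.35, 0.36 and 0.51 for Cox4i1, 0.46, 0.44 and 0.48 for Atp5o, the stalk protein that holds F1, and 0.52, 0.43 and 0.45 for Atp5l. Cox6b2, though variable, did not go with the others, at 0.02, 0.00 and 0.03. Ndufs1 and Sdha were at or below 0, with -0.11, -0.09 and -0.16 for Ndufs1 and -0.02, -0.06 and -0.06 for Sdha. Ndufs3, with 3.34, 3.44 and 3.57 UMIs per cell against 3.17, 3.41 and 3.32 for Ndufs1, had correlations of 0.26, 0.27 and 0.27.

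The shares of complexes I, III, IV and V were positively correlated across cells, but some were correlated as highly with lists outside the chain. For complexes I and IV Pearson r was 0.62, 0.64 and 0.64 at 0, 5 and 50 ng/ml, for I and V 0.61, 0.62 and 0.65, and for IV and V 0.53, 0.56 and 0.61. Complex III with V gave 0.59, 0.51 and 0.39, with I 0.51, 0.43 and 0.37, and with IV 0.47, 0.38 and 0.31, in the order of the doses. With cytosolic ribosomal proteins complex IV had 0.48, 0.52 and 0.58, above its values with complex III, while complex III had 0.05, 0.09 and 0.11. With mitochondrial ribosomal proteins complex III had 0.43, 0.50 and 0.43, and complex IV had 0.16, 0.22 and 0.18. The correlations are thus not particular to the chain. Complex II had correlations with the others from -0.04 to 0.16. Counting alone would give 26.0%, 25.8% and 25.8% of its coefficients of variation of 29.1%, 26.8% and 26.98%, which lowers any correlation. These values therefore cannot show whether complex II went with the others. Cells share a library and a fixed total of UMIs, the number of cells differs between libraries, and whether these correlations differ between doses was not tested. The member share had correlations of 0.41, 0.45 and 0.39 with mitochondrial ribosomal proteins, and of 0.08, -0.07 and 0.01 with the mitochondrially encoded subunits, the partners in the same complexes. With cytosolic ribosomal proteins, which took 25.4%, 24.4% and 24.0% of UMIs on average, they were 0.37, 0.47 and 0.58. With the log of the cell's UMIs they were -0.03, 0.01 and -0.05.

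**Figure D5:**
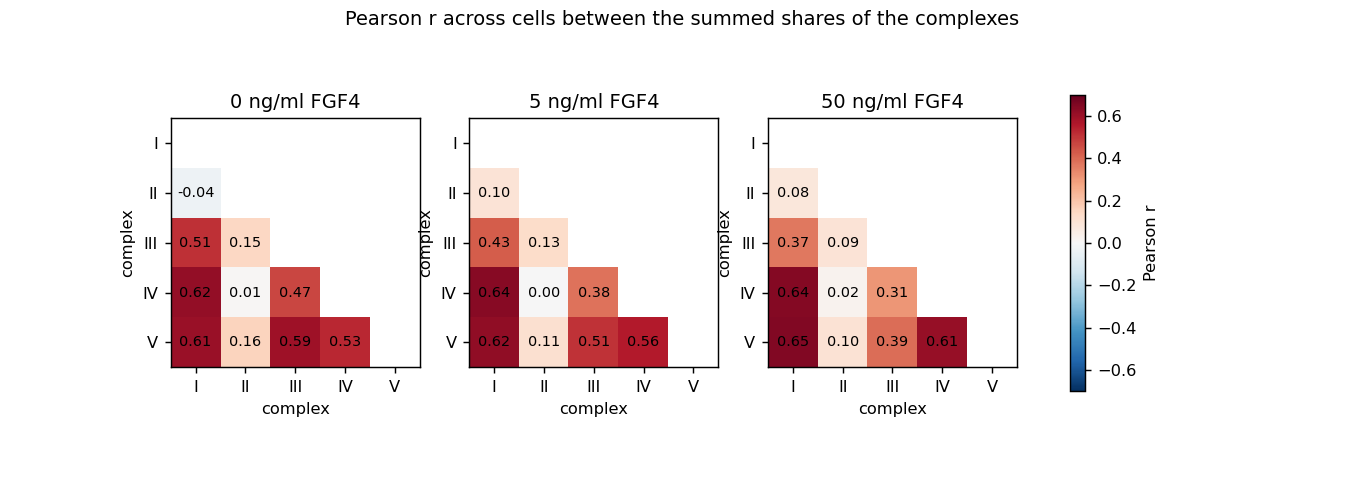
Pearson correlation across cells (358, 701 and 783 filtered cells thinned to 40000 UMIs) between the summed shares of the 5 complexes, 1 panel per FGF4 dose. Complexes I, IV and V are correlated at 0.53 to 0.65 in each library, and complex III less so at 50 ng/ml. Complex II, whose spread between cells is mostly counting error, has values of -0.04 to 0.16.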

How the data were processed

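The authors deposited 1 matrix of UMI counts per gene and cell barcode for each of 3 libraries, made with Cell Ranger 4.0.0 per the file headers and mm10 per the submitters' processing notes. How barcodes were chosen, which annotation was used, and whether trypsin or Accutase was used for a given library are not given in the sources used here. Library totals were 42726514, 75184072 and 81409975 UMIs, so that 3 UMIs amount to 0.0702, 0.0399 and 0.0369 CPM at 0, 5 and 50 ng/ml.

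Counts were summed over all barcodes of a library and divided by its total as CPM. Levels carry exact Poisson and ratios conditional binomial 95% intervals. A gene counted as measured in a comparison from 20 CPM in either library, and as different if 25% higher or 20% lower. With 1 library per dose no test was made. Members named with values were the 5 highest and lowest ratios of each comparison, the ends of each complex, the redox, catalytic and rotor subunits and the paralogue sets. Genes of other lists are named as the list's ends, and a few more were chosen after their values were seen: Nrf1, Ppargc1a, Cycs, Ndufb1-ps, Atp5l, Atp5o and Cox7c. Ndufa11 and Uqcr11 appear through their promoter match. The values of 1 named subunit are not reported here. The members and lists were chosen with earlier results of these data known.

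Cell values used filtered cells (at most 10% mitochondrial UMIs, within 3-fold of the median) thinned to 40000 UMIs. Scrublet in scanpy 1.11.5 called 12, 7 and 26 doublets, which were kept in the main values. TMM factors came from edgeR 4.0.16. Alternatives were TMM, median of ratios, mean share per barcode, totals without mitochondrial and ribosomal protein genes, filtered cells, no doublets, other levels, folds and depths. On libraries simulated with Poisson counts, 95.2% of intervals held the true ratio over 5425 genes, and 0 of 5225 unaltered genes passed a limit. The intervals assume the same Poisson counts, so this checks the calculation only. It does not cover spread between cells or cultures. Positions and near-identical copies (blastn 2.17.0) came from GENCODE M21, in which 32235 of 32285 identifiers matched. Promoter sequences came from RefSeq (GRCm38.p6).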

Additional observations from a re-analysis of the deposited data

How the results depend on the processing

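No paired analysis was possible because each dose was 1 library. The ratio of the summed level at 5 ng/ml was 0.981 with TMM, 0.903 as mean share per barcode, 0.963 without mitochondrial and ribosomal protein genes in the total and 0.985 in filtered cells. At 50 ng/ml these were 0.971, 0.874, 0.934 and 0.955, with 0.972 for median of ratios, and for 50 over 5 ng/ml TMM gave 0.990 and median of ratios 0.996. As mean share per barcode, 6 of 78 members were 20% lower or more at 5 ng/ml (13.9% of all genes), and 0 higher and 12 lower at 50 ng/ml (9.18% and 19.4%), with medians of -0.13 and -0.17 on the log2 scale. With TMM and with median of ratios 2 members were higher at 50 ng/ml (Ndufa8 and Uqcrq) and 3 lower, against 16.7% and 12.2% of all genes with TMM and 16.9% and 12.1% with median of ratios. No member was 1.5-fold or 2-fold higher or lower (0 in each direction). The shares of all genes past these folds are not given here, so this count is not a trait of the members. The share of members above 1 at 50 ng/ml was 25 of 78, and 33, 35 and 10 of 78 with TMM, median of ratios and mean share. With cells thinned to 7000 UMIs the coefficient of variation was 12.1%, 11.7% and 11.9% and the median correlation between complexes 0.14, 0.17 and 0.12, against 0.49, 0.40 and 0.34 at 40000 UMIs. At full depth it was 0.46 at 50 ng/ml. With all barcodes that reach 40000 UMIs, the correlation with mitochondrially encoded subunits at 50 ng/ml was -0.21 in place of 0.01. The cause of these differences was not tested beyond depth, which thinning lowers by construction. The median log2 ratio of 50 over 5 ng/ml was -0.03, and 0.01 with median of ratios. With 1 library per dose, spread between cultures is not known.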
